A study of Mus musculus with 721 samples.

Results

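Plasma membrane amino acid transporters set which amino acids enter a cell, and 10 of them, Slc7a1, Slc7a3, Slc7a5, Slc7a6, Slc7a7, Slc7a8, Slc3a1, Slc3a2, Slc1a5 and Slc38a4, were followed here from the blastocyst to early gastrulation. Members were taken by symbol, whatever their level, but the list was chosen with earlier results of these data known. Shares of members called are therefore given beside those of all genes as a description. Of the 24483 genes in the count table, 9 were members, and Slc7a3 was not analysed here. Transcripts were measured by single-cell RNA-seq of wild type C57Bl/6Babr mouse embryos, on 4 days: E3.5 (99 cells, 10 embryos), E4.5 (105 cells, 5 embryos), E5.5 (267 cells, 9 embryos) and E6.5 (250 cells, 13 embryos, 2 of them titled E6.75). Embryo numbers 1 and 2 recur at E6.5 with plate P1 and with no plate name, so 2 of the 13 may have been counted more than once. Trophectoderm had been removed by immunosurgery at E3.5 and E4.5, E5.5 epiblast had been pulled away from the visceral endoderm, and E6.5 embryos were at the early streak stage. All groups shared the same strain and genotype, and the paper reports embryos of both sexes, which were not separated here. Plates and handling differed between stages as well as age. Per the paper, E3.5 and E4.5 embryos were held in antiserum and rat serum and dissociated in Accutase, and E6.5 embryos in TrypLE. In comparisons between stages, age cannot be told apart from these.

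Several of these proteins work in pairs. Slc3a2 encodes the 4F2 heavy chain (CD98), a glycoprotein that carries no substrate itself and brings the light chains Slc7a5, Slc7a6, Slc7a7 and Slc7a8 to the membrane. Slc7a5 (LAT1) exchanges large neutral amino acids such as leucine, Slc7a8 (LAT2) takes a broader range of neutral amino acids, and Slc7a6 and Slc7a7 exchange cationic amino acids such as arginine and lysine for neutral ones. Slc3a1 (rBAT) is the other heavy chain and pairs with Slc7a9. Slc7a1 (CAT1) and Slc7a3 carry cationic amino acids without a heavy chain, Slc1a5 (ASCT2) exchanges glutamine and other small neutral amino acids, and Slc38a4 (SNAT4) is a sodium-coupled neutral transporter encoded by an imprinted gene. Amino acids taken up by such routes feed protein synthesis and keep the growth kinase complex mTORC1 active.

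The 721 cells held 66896 to 3792936 counts each (median 692863), and no pair of cells had identical counts. Cells were grouped by clustering without the members, so that the transporters did not define the classes compared. Epiblast-like cells numbered 26 in E4.5, 259 in E5.5 and 183 in E6.5 embryos. E4.5 embryos also gave 79 primitive endoderm-like (PrE-like) cells, E5.5 embryos 8 endoderm-like cells, and E6.5 embryos 42 endoderm-like and 25 primitive streak-like cells. The paper left a small group of E4.5 cells with markers of both lineages out of its later analyses, and such cells were not set apart here. Ward clustering placed some PrE-like cells with the epiblast-like ones. The E3.5 cells were kept as 1 class. Markers of the endoderm (28 genes) summed to 18340 to 26400 CPM (counts scaled to one common library total) in PrE-like sums against 409.9 to 994.3 CPM in epiblast-like sums at E4.5, and to 18010 to 45210 CPM in endoderm-like against 867.3 to 8661 CPM in epiblast-like sums at E6.5. The 8 trophoblast markers were all counted at E3.5, at 167.9 to 1061 CPM per embryo, against 63.14 to 158.8 CPM in PrE-like sums at E4.5, where Cdx2, Hand1, Krt7 and Tfap2a were at 0, and 148.0 to 405.3 CPM in epiblast-like sums, where Cdx2, Hand1 and Krt7 were at 0. Their part in the differences from E3.5 was not tested.

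Within an embryo, the counts of all cells of 1 class were added up, so the embryo is the replicate and p-values measure the spread between embryos. Sums of fewer than 3 cells were left out. Levels are CPM after TMM normalization, in 10 embryos at E3.5, 5 for each class at E4.5, 8 for E5.5 epiblast-like, 13 for E6.5 epiblast-like and 7 for E6.5 endoderm-like cells. All 48 sums went into 1 fit of 13475 genes with edgeR's quasi-likelihood test, and all 9 members passed the filter on low counts. Standard errors (SE) of its fold changes were derived from that test, as the absolute log2 fold change over the square root of the F statistic. A gene was called at a Benjamini-Hochberg adjusted p of at most 0.05 over all genes and a log2 fold change over 1, or over 2 between the E4.5 lineages. The cDNA was amplified by PCR and carried no molecular identifiers, so reads are no count of molecules and intervals and floors cover counting error only. In such sums, fewer cells with a transcript and less transcript per cell cannot be told apart, and shares of cells are given further on. E3.5 embryos were prepared on plates P8, P9 and P11.P6.P10, E4.5 embryos on P1 and P2, E5.5 embryos on P1, P2.P3, P7.P4.P5 and P11.P6.P10, and E6.5 embryos on P1, P2 and P3 or with no plate name in their titles. Whether a plate name used at several stages is the same plate is not stated, so stage and plate cannot be told apart in the comparisons between stages. Both endoderm-like sums with no plate name are the embryos titled E6.75, so in that class plate and title age cannot be told apart either.

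**Figure D1:**
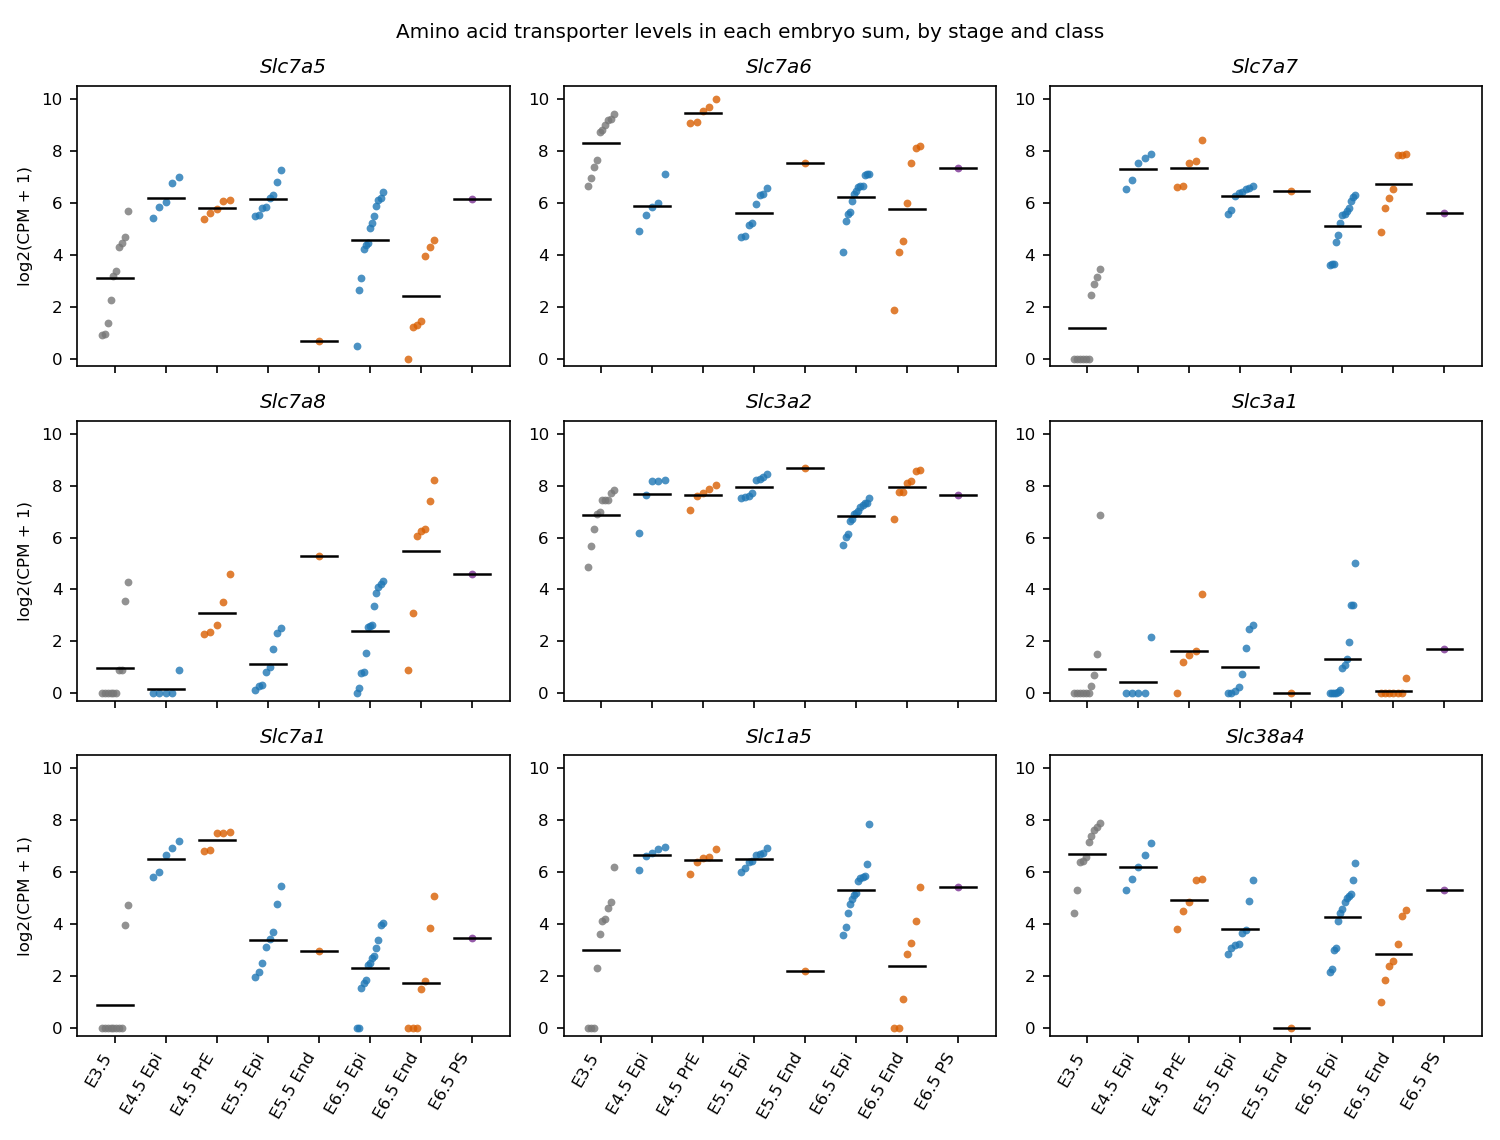
Level of each transporter as log2(CPM + 1) on the vertical axes, for each embryo sum (points) by stage and class, with a line at the mean of the sums (Epi epiblast-like, PrE primitive endoderm-like, End endoderm-like, PS primitive streak-like). Slc7a7 and Slc7a1 are at 0 in 6 and 8 of 10 E3.5 embryos and above 50 CPM in every E4.5 sum, Slc7a6 is high at E3.5 and in PrE-like sums, and Slc7a8 is highest in E6.5 endoderm-like sums.

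The transporter set at E3.5 consisted mostly of Slc7a6, Slc38a4 and Slc3a2, and 4 others were higher in both classes at E4.5. From E3.5 to the E4.5 epiblast-like class, 4 of 9 members rose (Slc7a7, Slc7a1, Slc1a5 and Slc7a5) and 1 fell (Slc7a6), where 20.7% of all genes tested were called (12.7% higher and 7.98% lower). The median log2 fold change was 0.75 over the members and 0.00 over all genes. From E3.5 to the PrE-like class Slc7a7, Slc7a1, Slc1a5 and Slc7a5 rose and Slc38a4 fell, where 18.5% of all genes were called (12.9% higher and 5.62% lower), and the medians were 1.54 over the members and 0.17 over all genes. Both comparisons share the E3.5 embryos. Between the E4.5 lineages, Slc7a6 and Slc7a8 were higher in PrE-like cells, 2 of 9 members against 6.04% of all genes (3.81% higher and 2.23% lower).

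In the epiblast after implantation, 1 member was called in each step. Slc38a4 fell from E4.5 to E5.5 (1 of 9 members, 5.47% of all genes called, 2.95% higher and 2.52% lower) and Slc3a2 fell from E5.5 to E6.5 (1 of 9 members, 8% of all genes called, 3.97% higher and 4.03% lower). In the endoderm, Slc7a1, Slc1a5, Slc7a6, Slc7a5 and Slc38a4 fell between the E4.5 PrE-like and the E6.5 endoderm-like class, 5 of 9 members against 12.5% of all genes (4.68% higher and 7.78% lower), with a median log2 fold change of −2.60 over the members and −0.10 over all genes. At E6.5, Slc7a8, Slc3a2 and Slc7a7 were higher and Slc1a5, Slc7a5, Slc38a4 and Slc3a1 lower in endoderm-like than in epiblast-like cells, 7 of 9 members against 16.1% of all genes (6.09% higher and 10% lower). No member separated the E6.5 classes without overlap, as 1.25% of all genes did. Several of these E6.5 calls changed with the plates or the embryo block, as given for each gene.

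**Figure D2:**
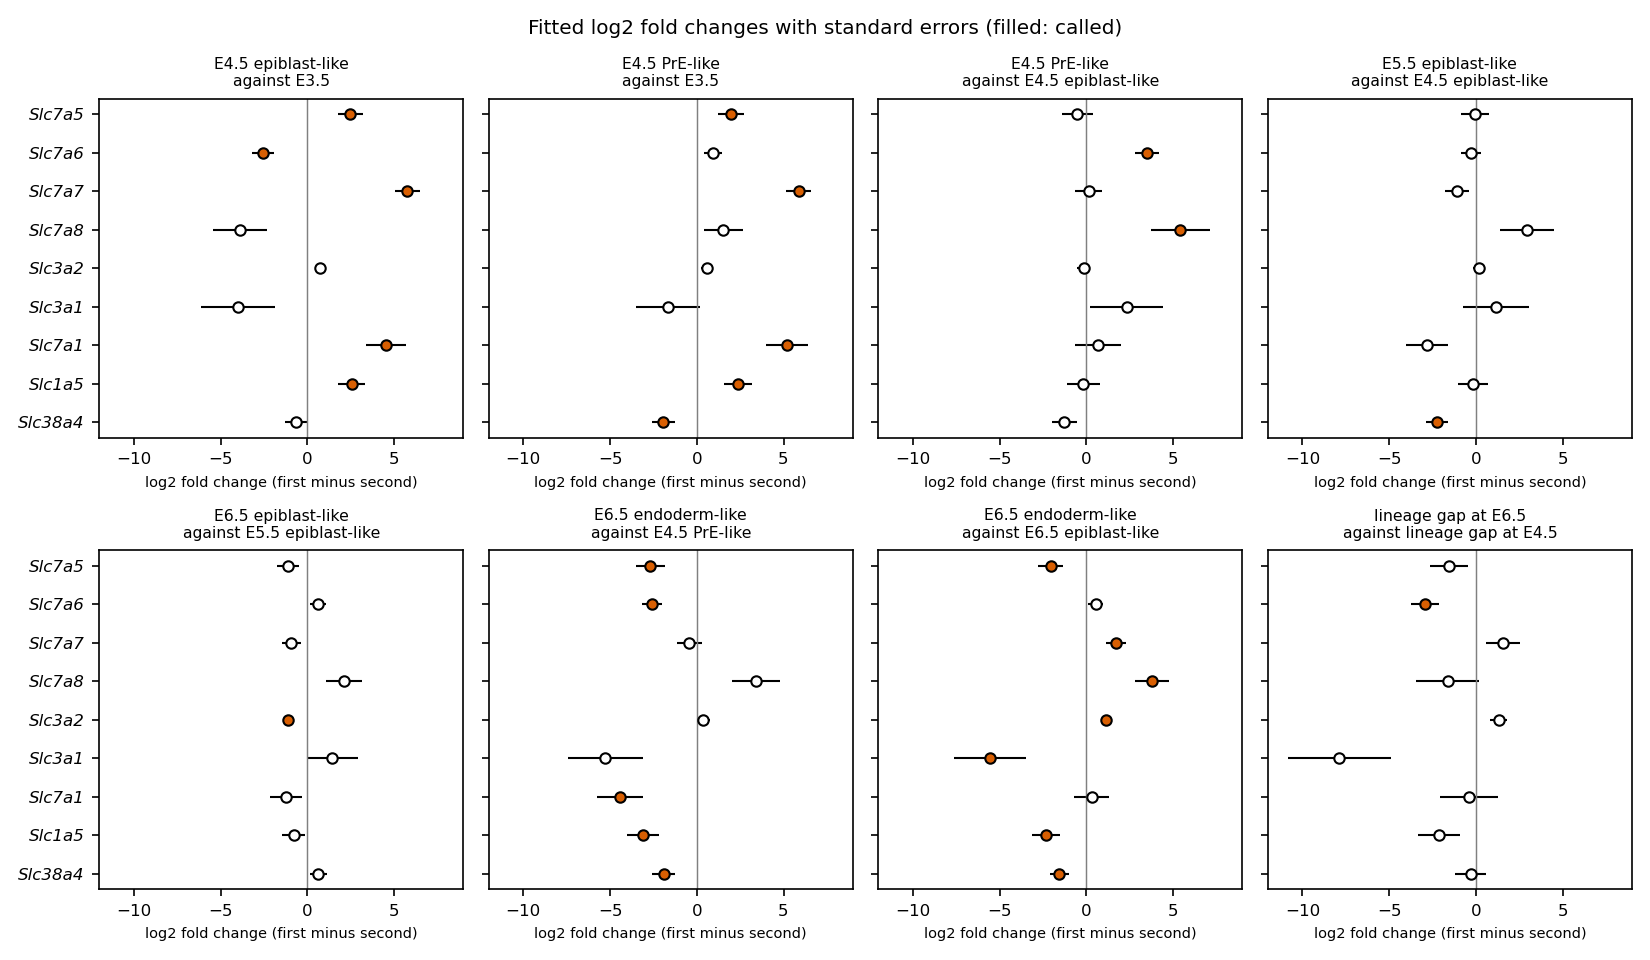
Fitted log2 fold change (horizontal axes) of the 9 members with its standard error in each comparison, first class minus second, from edgeR's quasi-likelihood fit; filled points were called. Slc7a7 has the largest rises from E3.5, at 5.75 and 5.88, Slc7a6 is higher in PrE-like than in epiblast-like sums at E4.5 (3.47), and its lineage gap changes by −2.94 to E6.5.

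The heavy chain Slc3a2 (chromosome 19, 8706882 to 8723369, minus strand; all positions are on GRCm38) varied less between classes than the other members. At E3.5 its level was 28.4 CPM in the lowest, 149 CPM in the median and 226 CPM in the highest embryo. In E4.5 epiblast-like sums it was 71.8, 197, 285, 291 and 299 CPM, and in PrE-like sums 134, 191, 208, 233 and 256 CPM. These ranges overlapped, and neither the rise from E3.5 to the epiblast-like class (log2 fold change 0.75 ± 0.33, SE, adjusted p = 0.0937) nor that to the PrE-like class (0.59 ± 0.33, adjusted p = 0.225) passed the test. At E5.5 epiblast-like sums spanned 184 to 352 CPM (median 251 CPM), and at E6.5 51.2 to 184 CPM (median 122 CPM). Every E6.5 embryo lay below the lowest E5.5 embryo, though the nearest pair both round to 184 CPM, a separation seen for 2.3% of all genes, and Slc3a2 fell (log2 fold change −1.10 ± 0.27, adjusted p = 0.00453). The log2 fold change was −1.15 on plates P1 to P3 (adjusted p = 0.00919) and −0.97 in embryos whose titles name no plate (adjusted p = 0.208). E6.5 endoderm-like sums, at 105 to 390 CPM (median 273 CPM), were higher than epiblast-like ones (1.15 ± 0.28, adjusted p = 0.00364; 0.94 on plates P1 to P3, adjusted p = 0.0677, and 1.54 without a plate name, adjusted p = 0.086).

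Slc7a7 (chromosome 14, 54369442 to 54417780, minus strand, GRCm38), the light chain mutated in lysinuric protein intolerance, showed the largest called rise. It had no count in 6 of the 10 E3.5 embryos and 4.53, 6.33, 7.92 and 9.89 CPM in the other 4, which were the embryos of plate P9. Embryos of plate P8 were sums of 3 or 4 cells and those of plate P9 of 11 to 28 cells. For every member, a level of 0 on plate P8 thus rests on few cells. In E4.5 epiblast-like sums it was 90.8, 116, 182, 210 and 233 CPM, and in PrE-like sums 95.6, 98.3, 183, 196 and 338 CPM. Every E4.5 sum lay above every E3.5 embryo, which was so for 7.38% of all genes in either direction in the epiblast-like and 9.08% in the PrE-like comparison. The log2 fold change was 5.75 ± 0.72 (adjusted p = 2.83e-08) to the epiblast-like and 5.88 ± 0.72 (adjusted p = 1.40e-08) to the PrE-like class. With E3.5 embryos of plate P9 alone, the rises were 4.54 (adjusted p = 1.98e-06) and 4.67 (adjusted p = 9.45e-07). The E4.5 lineages overlapped and did not differ by the test (0.13 ± 0.78, adjusted p = 0.975).

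Later levels of Slc7a7 were 47.0 to 98.5 CPM (median 82.9 CPM) in E5.5 epiblast-like, 11.1 to 78.1 CPM (median 45.8 CPM) in E6.5 epiblast-like and 28.4 to 233 CPM (median 90.9 CPM) in E6.5 endoderm-like sums. The steps down in the epiblast, −1.10 and −0.93, were not called (adjusted p = 0.408 and 0.318). At E6.5 the classes overlapped, and Slc7a7 was higher in the endoderm-like class (1.71 ± 0.56, adjusted p = 0.0276). That call was lost on plates P1 to P3 alone (1.44, adjusted p = 0.173), in embryos with no plate name (2.08, adjusted p = 0.268) and with the embryo as a block (2.05, adjusted p = 0.0581). Exons of Slc7a7 share 232 bases, 6.998% of their length, with Oxa1l on the opposite strand, and reads of both cannot be told apart there because use of strand in counting was not stated.

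Promoter sequence of RefSeq (GRCm38.p6, from 250 bases before to 50 bases after each start) was searched for the C/EBP-ATF response element TGATGNAAN on both strands, the sequence through which ATF4 acts in amino acid shortage. Of the members, 7 had an entry, and Slc1a5, Slc7a3 and Slc7a5 were not matched. Slc7a7 alone held the element, 1 of 7 members (14.3%) against 1215 of 27025 genes (4.5%), 12 of 29 amino acid response genes (41.4%), 2 of 33 other transporters (6.06%) and 1 of 25 mTORC1 sensing genes (4.0%). By window it was 2 of 15 (13.3%) for members against 1299 of 32851 (3.95%) for all genes. Slc7a7 has several starts with partly overlapping windows, and a gene with more windows can match more easily. The windows of 3 members are shown up to their start, Slc7a7 because it rose most and holds the element, Slc7a6 because it fell in the epiblast-like class, and Slc7a1 because it rose with Slc7a7. Capitals mark the element, which begins 141 bases before this start of Slc7a7 (chr14:54417945-54418194, minus strand). No element was found in the windows of Slc7a6 (chr8:106168604-106168853, plus strand) and Slc7a1 (chr5:148399905-148400154, minus strand).
Slc7a7: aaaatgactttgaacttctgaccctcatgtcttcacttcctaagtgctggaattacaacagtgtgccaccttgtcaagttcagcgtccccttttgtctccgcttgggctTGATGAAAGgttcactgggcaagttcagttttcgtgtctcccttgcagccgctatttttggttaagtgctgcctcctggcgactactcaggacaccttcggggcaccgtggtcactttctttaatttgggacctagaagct
Slc7a6: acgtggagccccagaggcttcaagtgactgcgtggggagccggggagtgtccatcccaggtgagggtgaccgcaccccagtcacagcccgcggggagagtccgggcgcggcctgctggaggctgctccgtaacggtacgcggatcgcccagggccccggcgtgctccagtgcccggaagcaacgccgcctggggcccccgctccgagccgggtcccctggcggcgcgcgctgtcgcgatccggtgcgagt
Slc7a1: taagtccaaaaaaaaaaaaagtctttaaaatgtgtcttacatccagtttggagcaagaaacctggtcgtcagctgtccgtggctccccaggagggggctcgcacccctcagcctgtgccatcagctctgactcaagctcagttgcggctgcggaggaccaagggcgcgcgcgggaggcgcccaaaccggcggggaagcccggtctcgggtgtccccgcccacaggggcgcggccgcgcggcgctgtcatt
A second match in Slc7a7, TGATGCAAC, begins 243 bases before another of its starts and spans the start shown. A match describes these letters only, and occupancy was not measured.

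Slc7a6 (chromosome 8, 106168857 to 106198706, plus strand) separated the lineages at E4.5. E3.5 embryos ranged from 98.2 to 680 CPM (median 434 CPM). Epiblast-like sums at E4.5 were 28.9, 45.8, 56.3, 62.1 and 136 CPM, and PrE-like sums 532, 560, 737, 819 and 1021 CPM. The lowest PrE-like embryo was above the highest epiblast-like one, and groups did not overlap for 13.5% of all genes in either direction. The difference was 3.47 ± 0.69 on the log2 scale (adjusted p = 7.00e-04), or 3.60 with the embryo as a block (adjusted p = 2.29e-04). From E3.5, Slc7a6 fell in the epiblast-like class (−2.54 ± 0.62, adjusted p = 0.00194), with 1 epiblast-like embryo inside the E3.5 range, while the PrE-like class did not differ by the test (0.93 ± 0.53, adjusted p = 0.226). The lineage difference and the fall from E3.5 held in every alternative fit tried, with lowest and highest log2 fold changes of 2.96 and 4.24 between lineages and −3.20 and −1.99 from E3.5.

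At E6.5 no lineage difference of Slc7a6 was called. Epiblast-like sums were 24.6 to 94.1 CPM (median 48.5 CPM) at E5.5 and 16.1 to 139 CPM (median 87.3 CPM) at E6.5, with no step called. E6.5 endoderm-like sums were 2.63, 16.1, 22.3, 62.7, 183, 272 and 290 CPM, all below the lowest PrE-like sum of E4.5, which was so for 8.34% of all genes. The fall along the endoderm was −2.60 ± 0.59 (adjusted p = 0.00199), −3.22 on plates P1 to P3 (adjusted p = 0.00132) and −1.69 in the 2 embryos with no plate name (adjusted p = 0.156). Endoderm-like and epiblast-like cells of E6.5 differed by 0.53 ± 0.46 (adjusted p = 0.454). The gap between lineages at E6.5 was smaller than at E4.5 by a test of that difference (−2.94 ± 0.81, adjusted p = 0.0269), for 1 of 9 members against 4.27% of all genes (1.05% with a positive and 3.23% with a negative change). It was −2.02 (adjusted p = 0.164) with cells classed by Ward clustering.

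Slc7a5 (chromosome 8, 121881150 to 121907694, minus strand), the leucine carrier, was low at E3.5, with 0.868 CPM in the lowest, 8.81 CPM in the median and 50.3 CPM in the highest embryo. Epiblast-like sums at E4.5 held 41.4, 56.1, 63.7, 107 and 126 CPM and PrE-like sums 40.7, 47.9, 52.9, 66.6 and 67.8 CPM. It rose in both classes, by 2.49 ± 0.74 (adjusted p = 0.0108) and 1.97 ± 0.74 (adjusted p = 0.0496), although the highest E3.5 embryo reached into both ranges. E3.5 levels were 18.8 to 50.3 CPM on plate P9 and 0.941 to 9.47 CPM on plate P8. Against plate P9 alone the rises were 1.46 (adjusted p = 0.273) and 0.94 (adjusted p = 0.551). The call in epiblast-like cells was also lost without doublet wells and in sums of at least 5 cells. The call in PrE-like cells was also lost under both of these settings, with no filter on low counts, with only the classes compared in the fit, without the E3.5 cells of no embryo number, and when any 1 of the 5 E4.5 embryos was left out, with adjusted p of up to 0.551 over all alternatives.

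Slc7a5 had no called step in the epiblast and was low in the endoderm of E6.5. E5.5 epiblast-like sums spanned 44.2 to 154 CPM (median 64.4 CPM), against E4.5 a difference of −0.04 ± 0.80 (adjusted p = 0.997). E6.5 epiblast-like sums spanned 0.385 to 85.5 CPM (median 31.3 CPM), and endoderm-like sums 0 to 22.7 CPM (median 1.73 CPM). All 7 endoderm-like sums lay below the E4.5 PrE-like sums (−2.69 ± 0.84, adjusted p = 0.0250), with −3.88 on plates P1 to P3 (adjusted p = 0.00736) and −1.42 with no plate name (adjusted p = 0.470). Against the E6.5 epiblast-like class the difference was −2.07 ± 0.73 (adjusted p = 0.0387), which was lost with relative log expression normalization, with only the classes compared in the fit, with embryos 1 and 2 of plate P1 and of no plate name counted as the same embryos (−1.72, adjusted p = 0.0626), and with the embryo as a block (−3.25, adjusted p = 0.128). It was −2.81 on plates P1 to P3 (adjusted p = 0.0390) and −1.48 with no plate name (adjusted p = 0.437). The call was also lost with Ward classes and in sums of at least 5 cells. Relative log expression moved the median of all genes in that comparison from −0.25 to −0.10.

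Slc7a8 (chromosome 14, 54722209 to 54781946, minus strand) was highest in the endoderm of E6.5. At E3.5 it had no count in 6 of 10 embryos and 0.845, 0.852, 10.8 and 18.7 CPM in the rest. Of the 5 epiblast-like sums at E4.5, 4 had no count and 1 held 0.866 CPM, from 4 counts in 1 cell. PrE-like sums held 3.93, 4.19, 5.13, 10.3 and 23.1 CPM, every one above the epiblast-like sums, as for 13.5% of all genes (5.42 ± 1.72, adjusted p = 0.0402; 6.44 with the embryo as a block, adjusted p = 0.0211). That call was lost when embryo 1, 2, 3 or 4 was left out, with no filter on low counts, in sums of at least 5 cells and with Ward classes (4.11, adjusted p = 0.0913), and its adjusted p reached 0.161. The difference of the epiblast-like class from E3.5, −3.89 ± 1.57 (adjusted p = 0.0662), was called against plate P9 alone (−4.55, adjusted p = 0.0427) and by DESeq2 (−3.86, adjusted p = 0.0215).

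At E6.5 Slc7a8 was 0.878, 7.49, 66.1, 75.2, 80.4, 168 and 298 CPM in endoderm-like sums and 0 to 19.0 CPM (median 4.99 CPM) in epiblast-like sums. The class difference was 3.79 ± 0.98 (adjusted p = 0.00609), with 2 endoderm-like embryos inside the epiblast-like range, and 4.38 with the embryo as a block (adjusted p = 0.0320). It was 2.86 on plates P1 to P3 alone (adjusted p = 0.125) and 4.67 in embryos with no plate name (adjusted p = 0.157). The step from the PrE-like class was 3.41 ± 1.41 (adjusted p = 0.0994) and was not called. E5.5 epiblast-like sums spanned 0.104 to 4.64 CPM.

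**Figure D3:**
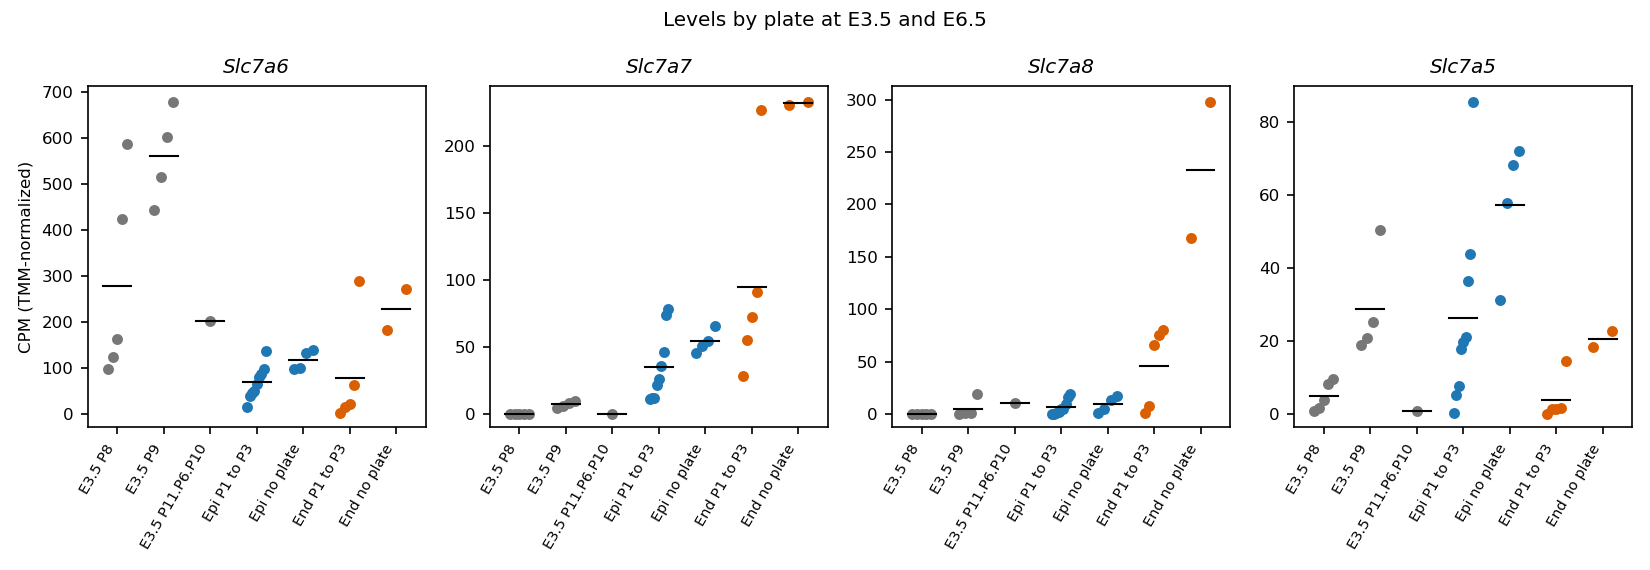
CPM after TMM normalization (vertical axes) of 4 light chains in each embryo sum (points) at E3.5 and E6.5, split by plate, with a line at the mean. The E3.5 embryos of plate P8 have no count of Slc7a7 or Slc7a8, and the 2 endoderm-like sums with no plate name, which are the embryos titled E6.75, have the highest Slc7a8, 168 and 298 CPM.

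Per base of exon, the 4 light chains made up different mixtures in the classes. Slc7a6 was 94.2 ± 4.04% of their summed level per length at E3.5 (SD, n = 10) and 69.8 ± 5.80% in PrE-like sums (n = 5), against 16.4 ± 6.97% in E4.5 epiblast-like sums (n = 5). Slc7a7 held the largest mean share in E4.5 epiblast-like (58.1 ± 12.8%), E5.5 epiblast-like (42.9 ± 10.8%, n = 8) and E6.5 endoderm-like sums (53.0 ± 24.6%, n = 7). Slc7a5 reached 25.4 ± 11.1% in E4.5 and 35.2 ± 6.36% in E5.5 epiblast-like sums and was 1.84 ± 1.23% in E6.5 endoderm-like sums. Slc7a8 made up 22.0 ± 18.5% in E6.5 endoderm-like sums and at most 3.85 ± 4.52% in the other tested classes. In the E6.5 epiblast-like class Slc7a6 was at 44.3 ± 16.8%, Slc7a7 at 29.6 ± 16.9% and Slc7a5 at 22.3 ± 16.4% (n = 13). The level of the 4 light chains together, relative to Slc3a2 and both per length, was 2.64 ± 1.30 at E3.5, 1.55 ± 0.718 in E4.5 epiblast-like, 4.01 ± 0.648 in PrE-like, 0.802 ± 0.208 in E5.5 epiblast-like, 1.37 ± 0.670 in E6.5 epiblast-like and 1.07 ± 0.635 in E6.5 endoderm-like sums. PrE-like sums, at 2.89 to 4.57, did not overlap the E4.5 epiblast-like sums, at 0.953 to 2.76, and no test was run on these ratios.

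**Figure D4:**
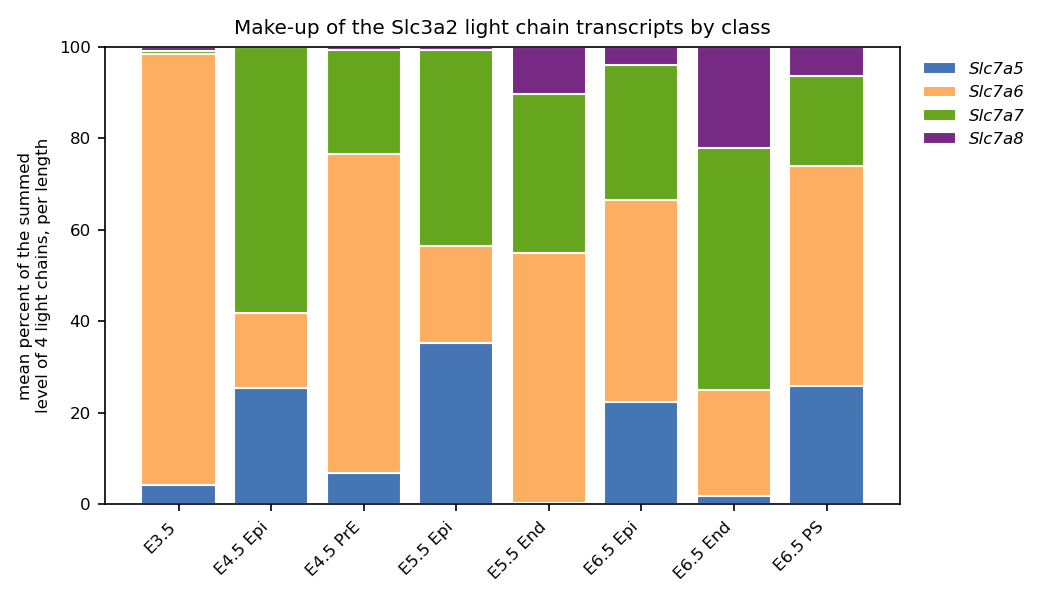
Mean percent of the summed level of the 4 Slc3a2 light chains, per exon length (vertical axis), by stage and class (bars; colors mark the genes). Slc7a6 fills 94.2% at E3.5 and 69.8% in E4.5 PrE-like sums, Slc7a7 fills 58.1% in E4.5 epiblast-like sums, and Slc7a8 is sizeable only in endoderm-like bars, with 22.0% at E6.5; the E5.5 End and E6.5 PS bars are 1 embryo each.

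Slc3a1 (chromosome 17, 85028376 to 85064236, plus strand), the rBAT heavy chain, was counted in few cells and few embryos. It had no count in 6 of 10 E3.5 embryos, and 1 embryo of plate P8 held 115 CPM, from 329 counts in 1 cell. The remaining 3 E3.5 embryos held 0.211, 0.629 and 1.88 CPM. At E4.5 it was at 0 in 4 epiblast-like sums and 3.47 CPM in the fifth, and in PrE-like sums it was 0, 1.33, 1.79, 2.09 and 13.2 CPM. E6.5 endoderm-like sums held 3 counts in 1 of 7 embryos against 645 counts in 9 of 13 epiblast-like embryos, a ratio of pooled CPM of 50.3 (counting interval 17.1 to 244), called at an adjusted p of 0.0499. Of the 645 counts, 453 came from embryo 5 of plate P2 (31.8 CPM). Without its epiblast-like sum the ratio was 16.7 (192 counts, 5.63 to 81.7) and the call was lost (adjusted p = 0.0962). The call was lost in 8 of 12 alternatives, with adjusted p of up to 0.427. Its exons share 601 bases, 26.5% of their length, with Prepl on the opposite strand, from which reads cannot be told apart.

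Slc7a1 (chromosome 5, 148327410 to 148399904, minus strand), the cationic transporter CAT1, was high in both lineages at E4.5 and low before and after. It was at 0 in 8 of 10 E3.5 embryos and at 14.6 and 26.0 CPM in the other 2, both of plate P9. E4.5 epiblast-like sums held 55.0, 62.8, 102, 120 and 146 CPM and PrE-like sums 112, 114, 180, 181 and 189 CPM, all above E3.5. The rises were 4.53 ± 1.16 (adjusted p = 0.00315) and 5.20 ± 1.19 (adjusted p = 0.00109). Against plate P9 alone they were 3.25 (adjusted p = 0.0982) and 3.93 (adjusted p = 0.0585). The lineages overlapped at E4.5 (0.67 ± 1.33, adjusted p = 0.854).

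By E5.5 epiblast-like sums held 2.89 to 42.7 CPM of Slc7a1 (median 8.70 CPM), all below the E4.5 epiblast-like sums, a separation seen for 10.8% of all genes. The fitted difference, −2.83 ± 1.199, was not called with the spread shared by all classes (adjusted p = 0.154) and was called with only those classes in the fit (−2.83, adjusted p = 0.00171). E6.5 epiblast-like sums held 0 to 15.3 CPM (median 4.69 CPM) and endoderm-like sums 0 to 32.6 CPM (median 1.86 CPM). Slc7a1 fell from the PrE-like to the E6.5 endoderm-like class by 4.44 on the log2 scale (SE 1.34, adjusted p = 0.0205), without overlap. On plates P1 to P3 alone the difference was −4.47 (adjusted p = 0.0523) and with no plate name −4.38 (adjusted p = 0.266).

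Slc1a5 (chromosome 7, 16781340 to 16798274, plus strand), a glutamine exchanger, was at 0 in 3 E3.5 embryos, at 3.92 to 27.9 CPM in 6, and at 72.2 CPM in the embryo of plate P11.P6.P10. At E4.5 epiblast-like sums held 67.8, 96.8, 105, 118 and 125 CPM and PrE-like sums 60.7, 84.0, 92.2, 95.9 and 118 CPM. It rose by 2.56 ± 0.80 (adjusted p = 0.0150) and 2.38 ± 0.79 (adjusted p = 0.0261), and by 3.06 (adjusted p = 0.0144) and 2.88 (adjusted p = 0.0224) against plate P9 alone. Both calls were lost without doublet wells and with only the classes compared in the fit, and the second without E4.5 embryo 3 (2.28, adjusted p = 0.0570), with adjusted p of up to 0.107. E5.5 epiblast-like sums held 63.9 to 121 CPM (median 92.4 CPM), with a difference from E4.5 that was not called (−0.16 ± 0.85, adjusted p = 0.965).

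At E6.5 Slc1a5 spanned 11.01 to 229 CPM (median 35.7 CPM) in epiblast-like sums and was 0, 0, 1.15, 6.17, 8.64, 16.5 and 41.6 CPM in endoderm-like sums. All of the latter lay below the E4.5 PrE-like sums (−3.09 ± 0.91, adjusted p = 0.0179), with −4.76 on plates P1 to P3 (adjusted p = 0.00307) and −1.66 with no plate name (adjusted p = 0.5). Slc1a5 was lower in endoderm-like than in epiblast-like cells (−2.33 ± 0.80, adjusted p = 0.0325), with −3.99 on plates P1 to P3 (adjusted p = 0.0103), −0.93 with no plate name (adjusted p = 0.732) and −3.07 with the embryo as a block (adjusted p = 0.135). That call was lost in 5 of 14 alternatives, also with only the classes compared in the fit, without doublet wells and with Ward classes.

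Slc38a4 (chromosome 15, 96994820 to 97055956, minus strand), the imprinted SNAT4 gene, declined in both lineages. E3.5 embryos held 20.7 to 237 CPM (median 119 CPM). E4.5 epiblast-like sums held 38.4, 52.5, 73.2, 99.4 and 138 CPM (−0.67 ± 0.63 from E3.5, adjusted p = 0.501), and PrE-like sums 13.2, 21.9, 28.3, 51.3 and 52.4 CPM. Slc38a4 fell in the PrE-like class (−1.94 ± 0.67, adjusted p = 0.0339), a call lost when embryo 1, 3 or 5 of E4.5 or the E3.5 cells of no embryo number were left out (adjusted p up to 0.0993). The E4.5 lineages differed by −1.26 ± 0.72 (adjusted p = 0.308) and by −1.31 with the embryo as a block (adjusted p = 0.0302), short of the fold limit of 2 at this stage. From E4.5 to E5.5 it fell in the epiblast-like class to 6.24 to 50.8 CPM (median 10.1 CPM; −2.26 ± 0.63, adjusted p = 0.0217). Without E4.5 embryo 4 that step had an adjusted p of 0.0812.

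E6.5 levels of Slc38a4 were 3.43 to 80.6 CPM (median 22.7 CPM) in epiblast-like and 1.006 to 22.1 CPM (median 4.99 CPM) in endoderm-like sums. The fall from the PrE-like class (−1.91 ± 0.66, adjusted p = 0.0451) and the difference from the E6.5 epiblast-like class (−1.56 ± 0.57, adjusted p = 0.0461) were close to the threshold. They were lost in 11 of 17 and 9 of 14 alternatives, the second with the embryo as a block among them (−1.51, adjusted p = 0.387). In embryos with no plate name they were −4.18 (adjusted p = 0.0146) and −3.68 (adjusted p = 0.0417), and on plates P1 to P3 −1.52 (adjusted p = 0.142) and −1.23 (adjusted p = 0.198).

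Cell by cell, Slc3a2 was close to universal and the others were mixed. At least 1 count of Slc3a2 was present in 92 of 99 E3.5 cells (92.9%, exact 95% binomial interval 86.0 to 97.1%), in all 105 E4.5 cells and in 253 of 259 E5.5 epiblast-like cells (97.7%). Slc7a6 was counted in 92 of 99 E3.5 cells, in all 79 PrE-like cells and in 18 of 26 E4.5 epiblast-like cells (69.2%, 48.2 to 85.7%). Slc7a7 was counted in 13 of 99 E3.5 cells (13.1%, 7.18 to 21.4%), all of plate P9, and in 25 of 26 epiblast-like and 70 of 79 PrE-like cells at E4.5. On plate P8, 0 of 16 cells had a count of Slc7a7, an interval of up to 20.6%. Slc7a1 went from 6 of 99 cells at E3.5 (6.06%) to 23 of 26 and 72 of 79 at E4.5 and back to 76 of 259 E5.5 epiblast-like cells (29.3%, 23.9 to 35.3%). Slc7a8 was counted in 33 of 42 E6.5 endoderm-like cells (78.6%, 63.2 to 89.7%) and in 57 of 183 epiblast-like cells (31.1%, 24.5 to 38.4%). Its endoderm-like share was 72.4% on plates P1 to P3 and 92.3% with no plate name. These intervals take pooled cells as independent and leave out the spread between embryos, so they are no test between classes. Each cell was also thinned to 300000 counts, and over 72 shares of members and classes the thinned share was at most 23.2 percentage points lower and 1.79 points higher. Thinning does not even out the genes detected per cell, which were fewer in many E3.5 cells than in most PrE-like cells. Of the 2 E3.5 clusters, the one with mostly fewer genes detected held 9 of 16 cells of plate P8 and 19 of 74 of plate P9. The part of genes detected in shares and zeros was not tested.

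Most cells carried more than 1 light chain, where a well labelled as a doublet counts as 1 cell. Such wells were more frequent at E4.5 (38 of 105) than at E3.5 (9 of 99). Neither their part in these counts nor that of genes detected per cell was tested. At E3.5, 35 of 99 cells had a count of exactly 1 of the 4 and 59 had 2 or more (59.6%), against 96.2% of epiblast-like and 94.9% of PrE-like cells at E4.5, 83.8% of E5.5 epiblast-like and 81.0% of E6.5 endoderm-like cells. All 4 were counted together in 23 of 25 primitive streak-like cells, all with no plate name, in 16 of 42 E6.5 endoderm-like cells and in 22 of 79 PrE-like cells. Wherever a light chain was counted, Slc3a2 was nearly always counted as well, in 86 of 92 E3.5 cells with Slc7a6 and in 224 of 227 E5.5 epiblast-like cells with Slc7a7. Slc3a2 was so widespread that these shares sit close to its share over all cells, 92.9% and 97.7%.

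**Figure D5:**
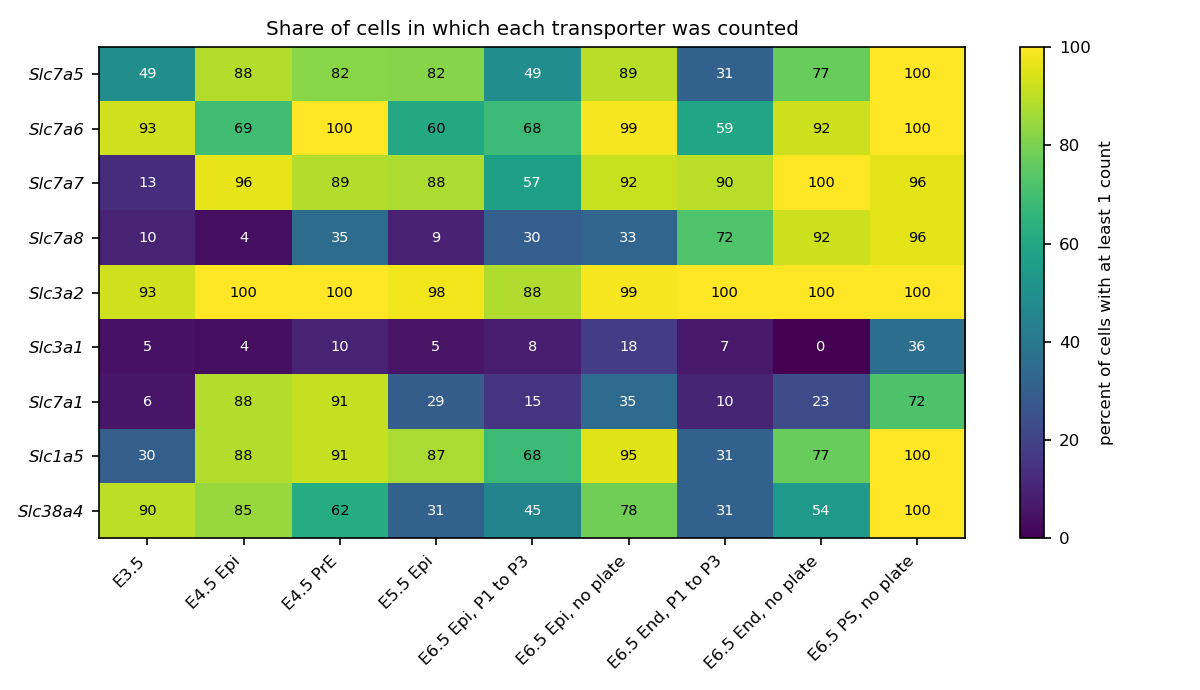
Percent of cells with at least 1 count of each transporter (color and number) by stage and class, doublet wells included, with the E6.5 classes split by plate name. Slc3a2 is at 88 to 100% throughout, Slc7a7 and Slc7a1 rise from 13.1% and 6.06% at E3.5 to 88.5% or more at E4.5, and E6.5 cells with no plate name have higher shares than those of plates P1 to P3 for most members.

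The E6.5 libraries with and without a plate name differed for several members. Of the 183 epiblast-like cells, 100 came from plates P1 to P3 and 83 from embryos with no plate name, and the clusters behind the class followed the plates. Of the 83, 54 and 19 came from the embryos titled E6.75, so title age largely runs with the missing plate name. The clusters that held plates P1 to P3 (24 and 78 cells, 2 of them with no plate name) had mean log2 levels of epiblast markers of 4.11 and 4.66, against 4.58 and 4.48 in the remaining E6.5 cells and 5.24 in the cluster with no plate name (81 cells), and mean levels of endoderm markers of 2.51 and 3.26. Slc7a6 was counted in 68.0% against 98.8% of these cells, Slc7a5 in 49.0% against 89.2% and Slc1a5 in 68.0% against 95.2%. Mean Slc7a5 levels were 26.4 ± 26.3 CPM (SD, n = 9) and 57.2 ± 18.3 CPM (n = 4), and mean Slc7a8 levels in endoderm-like sums 46.0 ± 38.6 CPM (n = 5) and 233 ± 92.0 CPM (n = 2). Endoderm markers also summed to a median of 2745 CPM in E6.5 epiblast-like sums, against 550.4 CPM (388.1 to 638.6 CPM) in E5.5 epiblast-like sums, with all 28 genes counted. The part of either in the E6.5 results was not tested beyond the within-plate values given.

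The endoderm-like class of E5.5 and the primitive streak-like class each had 1 embryo with at least 3 cells, so they give values without a test. Some wells of that E5.5 embryo carry the label VE (visceral endoderm), while the class was named here from markers. The E5.5 endoderm-like sum (5 cells) held 406 CPM of Slc3a2 (exact Poisson interval 391 to 421 CPM), 186 CPM of Slc7a6, 86.0 CPM of Slc7a7 and 38.0 CPM of Slc7a8 (33.5 to 43.0 CPM). Slc7a5 stood at 0.598 CPM (4 counts, 0.163 to 1.53 CPM), and Slc38a4 and Slc3a1 had no count, which allows up to 0.449 CPM at 3 counts (exact Poisson upper limit 0.552 CPM). Per kilobase of exon, Slc7a8 stood at 7.59 and Slc7a5 at 0.161 CPM there. The primitive streak-like sum (24 cells, endoderm markers at 4608 CPM) held 196 CPM of Slc3a2, 160 CPM of Slc7a6, 70.1 CPM of Slc7a5, 47.5 CPM of Slc7a7, 42.1 CPM of Slc1a5, 38.7 CPM of Slc38a4 and 22.9 CPM of Slc7a8. Of these, Slc7a6 and Slc7a8 were above the highest epiblast-like embryo of E6.5 (139 and 19.0 CPM) and Slc3a2 was as well (184 CPM).

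Levels of different members were ranked per kilobase of exon. Slc7a6 led at E3.5 (84.0 CPM per kilobase) and in PrE-like sums (161), followed by Slc3a2 (38.5 and 57.9). Slc3a2 led in E4.5 epiblast-like (64.8), E5.5 epiblast-like (72.5), E6.5 epiblast-like (33.9) and E6.5 endoderm-like sums (75.5). Slc7a7 came next in E4.5 epiblast-like (50.2), E5.5 epiblast-like (23.5) and E6.5 endoderm-like sums (40.4), and in PrE-like sums it was close to Slc3a2 (54.9). At E5.5 Slc1a5 and Slc7a5 (22.0 and 20.8) followed Slc7a7 within its spread. Slc3a1 was last or next to last among the members in PrE-like, E4.5 and E5.5 epiblast-like and E6.5 endoderm-like sums.

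The genes whose log2(CPM + 1) followed a member most closely over the 48 sums are given as a description, since sums of a class share stage, plates and depth. For Slc7a7 they were Fkbp11 (Pearson r = 0.877), Ucp2 (0.858) and Slc9a3r1 (0.846), and for Slc7a8 Mttp (0.784), Muc13 (0.781) and Igf2as (0.767). Slc7a6 went with Aqp8 (0.772), Me1 (0.766) and Fam176a (0.757), Slc7a1 with Epha2 (0.767), Hspb1 (0.741) and P2ry2 (0.734), and Slc1a5 with Fam160a2 (0.780), Rpl23a (0.767) and Rpl38 (0.744). Slc7a5 went with Gm10263 (0.766), Abcc4 (0.759) and Mzt2 (0.756), and Slc38a4 with Ckb (0.772), Coil (0.746) and Zmat5 (0.732). Slc3a1 had weaker neighbours than these, Cpt1b (0.646), Galns (0.615) and Gpld1 (0.523).

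Other amino acid transporters, 44 by name, give the setting for these changes: 42 had a row and 23 passed the filter on low counts. From E3.5, 7 were called higher and 4 lower in E4.5 epiblast-like cells and 7 higher and 2 lower in PrE-like cells, where 20.7% and 18.5% of all genes were called, with median log2 fold changes of 0.22 and 1.35 over the 23. Slc38a2 (SNAT2), a sodium-coupled carrier of small neutral amino acids, rose to both classes, from 2.48 CPM at E3.5 to means of 237 CPM (6.48, adjusted p = 1.58e-11) and 389 CPM (7.20, adjusted p = 1.10e-12). Slc1a1, a glutamate and cysteine carrier, fell from 214 CPM to 8.37 and 1.198 CPM. Slc7a9, the light chain that pairs with Slc3a1, had no count in E4.5 epiblast-like and 1309 counts in PrE-like cells, or at least 115-fold higher with a floor of 3 counts for the epiblast-like class. At E6.5 Slc7a9 was higher in endoderm-like (74.6 CPM) than in epiblast-like sums (6.20 CPM; 3.59 ± 0.92, adjusted p = 0.00585), while Slc3a1 had only the 3 counts given above in the endoderm-like class. In later steps the counts of called genes, higher and lower, were 3 and 1 between E4.5 lineages (6.04% of all genes called), 2 and 1 from E4.5 to E5.5 epiblast-like (5.47%), 1 and 0 from E5.5 to E6.5 epiblast-like (8%), 0 and 4 from PrE-like to E6.5 endoderm-like (12.5%), and 2 and 5 between E6.5 lineages (16.1%). Slc38a1 (SNAT1), a glutamine carrier, rose in the epiblast from 0.953 to 98.4 CPM between E4.5 and E5.5 (6.5 ± 0.92, adjusted p = 3.38e-06).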

How the data were processed

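Single-cell libraries were made by Smart-seq2 from polyadenylated RNA (G&T-seq). According to the submitters' processing notes, reads were trimmed with Trim Galore 0.4.3 and aligned with HISAT2 2.0.5 to GRCm38. The authors counted reads per gene in SeqMonk and deposited raw counts for cells that had passed their quality limits, with trophoblast cells left out. The table covered chromosomes 1 to 19, all its columns were mapped to samples, and Slc7a3 is not analysed here. Use of strand in counting is not given in the sources used here.

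The members and gene lists were chosen with earlier results of these data known. Cells were clustered by consensus k-means (the steps of SC3, with Ward clustering as an alternative) on genes counted in 6 to 94% of cells, without members or listed genes, into 8 clusters and, at E6.5, 5 clusters. A cluster was named for whichever of the endoderm (28 genes) and epiblast (19 genes) markers had the higher mean log2 level in it, with at least 3 detected, or, at E6.5, for the primitive streak (15 genes) where that set stood furthest above the other clusters and by over 0.5. Cells titled E6.75 stayed with E6.5, the 9 E3.5 cells with no embryo number counted as 1 embryo, and 128 wells labelled as doublets were kept, with a fit without them as an alternative. No doublet caller was run.

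Counts were summed by embryo and class, and 48 sums of at least 3 cells (13475 genes after filterByExpr, TMM normalization, 42 residual degrees of freedom) were fitted with edgeR 4.0.16 in R 4.3.3. Totals were 66896 to 3792936 counts per cell and 1476466 to 49484352 per tested sum. Shares have exact (Clopper-Pearson) 95% intervals, and 46 cells under 300000 counts were left out of thinned shares. Named genes were all members, at most 3 called genes per direction and list by adjusted p, and the 3 genes most correlated with each member. On simulated data with 200 genes changed 8-fold among 13475, the test recovered 115 genes in the comparison of E4.5 epiblast-like with E3.5 and 140 in that of the E6.5 lineages, with 2 and 3 other genes called. Recovery was lowest between the E4.5 lineages, at 109 genes. Counts were drawn independently from a single mean per gene, without plate effects, and genes of low mean level were not changed. The simulation therefore does not cover plate differences or members near 0.

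Classes of the same embryo come from the same animal. Their deviations correlated across genes by 0.0231 to 0.0971 in 5 embryos at E4.5 and by 0.0307 to 0.216 in 7 embryos at E6.5. The embryo was tried as a block, in a fit of only those classes and embryos. Other alternatives were DESeq2 1.42.0, relative log expression (RLE) normalization, no low-count filter, only the classes compared, Ward classes, sums of at least 5 cells, each E4.5 embryo left out, and plates or titles left out. Clustering used scikit-learn 1.9.0, intervals scipy 1.17.1, tables pandas 2.3.3 and numpy 2.4.6, and plots matplotlib 3.10.9, all in Python 3.11.15. The genes most like Slc3a2 are not reported here.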

Additional observations from a re-analysis of the deposited data

Results flagged for a closer look

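Single embryos stood apart from the rest of their group for 5 members, by a gap over range above Dixon's 95% critical value, in 9 of 45 groups of 4 to 10 embryos. For normally distributed values chance gives about 1 in 20. That rate does not hold for skewed CPM with many embryos at 0, among them the 3 of these groups in which all other embryos were at 0. The E6.5 epiblast-like class, with 13 embryos, was not looked at. For Slc1a5 these were the E3.5 cells with no embryo number, at 72.2 CPM against 27.9 CPM in the next embryo, and 1 of the E6.75 embryos in the E6.5 endoderm-like class, at 41.6 CPM against 16.5 CPM. For Slc7a5 it was 1 E3.5 embryo of plate P9, at 50.3 CPM against 25 CPM. For Slc7a1 it was 1 endoderm-like sum of 3 cells on plate P3, at 32.6 CPM against 13.4 CPM.

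Slc3a1 had such an embryo in 4 classes. It stood at 115 CPM at E3.5 (329 counts in 1 cell, next embryo 1.88 CPM), at 13.2 CPM in PrE-like sums (next 2.09 CPM), at 3.47 CPM in E4.5 epiblast-like sums (16 counts, the others at 0) and at 0.493 CPM in E6.5 endoderm-like sums (3 counts, the others at 0). Slc7a8 at 0.866 CPM in 1 E4.5 epiblast-like sum rested on 4 counts, with the other 4 sums at 0.

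The difference between lineages was not the same at both stages for Slc7a6. Its endoderm against epiblast log2 difference was 3.47 at E4.5 and 0.53 at E6.5, and edgeR's quasi-likelihood test of the change, −2.94 ± 0.81, had an adjusted p of 0.0269.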

How the results depend on the processing

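Over 27 called results of members and 389 alternatives, 295 kept the call, 94 lost it and 0 reversed. Slc7a7 (both rises from E3.5) and Slc7a6 (the fall to E4.5 epiblast-like and the E4.5 lineage difference) kept theirs in every alternative. The number of members called between E6.5 lineages, 7, was 4 with RLE normalization and with Ward classes, 3 with only the classes compared and with sums of at least 5 cells, 2 without cells titled E6.75 and on plates P1 to P3, and 1 with no plate name. From PrE-like to E6.5 endoderm-like, 5 became 3 with only the classes compared and on plates P1 to P3, and 1 with no plate name. From E3.5 to PrE-like, 5 became 3 with only the classes compared, without doublets, without the E3.5 cells of no embryo number and with plate P9 alone (chosen after seeing the data), and 2 to 4 without 1 E4.5 embryo. From E3.5 to E4.5 epiblast-like, 5 became 3 with sums of at least 5 cells. Between E4.5 lineages, 2 became 1 with no filter, Ward classes or sums of at least 5 cells, and 1 to 2 without 1 embryo. From E4.5 to E5.5 epiblast-like, 1 became 3 with only the classes compared, and 0 to 1 without 1 embryo. From E5.5 to E6.5 epiblast-like, 1 became 0 with no plate name. For the change in lineage gap, 1 became 2 with DESeq2 and 0 with Ward classes. Counting embryos 1 and 2 of plate P1 and of no plate name as the same embryos, or leaving out embryo 5 of plate P2 from the epiblast-like class (both chosen after seeing the data), left 6 of the 7 E6.5 lineage calls. Embryos titled E6.75 were kept apart in the merged fit, which therefore does not cover a repeat of embryos under that title. The causes were not tested.

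With the embryo as a block, 2 members were called between E6.5 lineages (Slc3a2 and Slc7a8) and 565 genes, against 2173 in the main fit. The block fit held only the 2 classes and the 7 embryos with both, so these counts differ in samples as well as in pairing. With only the classes compared and no block, the count of all genes was also lower than in the main fit, as given below. The block changed no member call at E4.5 (995 genes, against 814 in the main fit of all classes).

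Counts of all genes called moved by over 1.5 times as well. With only the classes compared they were 2098 against 737 from E4.5 to E5.5 epiblast-like (1125 with DESeq2), 1358 against 2789 and 1510 against 2494 from E3.5 to the epiblast-like and PrE-like classes (1712 and 1454 with plate P9 alone, and 1857 for the first with sums of at least 5 cells), 834 against 1679 from PrE-like to E6.5 endoderm-like (458 with no plate name) and 1021 between E6.5 lineages (1344 on plates P1 to P3, 327 with no plate name). From E5.5 to E6.5 epiblast-like, 1078 became 2620 with no filter, 1783 with sums of at least 5 cells and 327 with no plate name. Between E4.5 lineages, 814 became 434 to 515 without 1 embryo. With DESeq2, 914 of 1910 genes called from PrE-like to E6.5 endoderm-like were higher, against 631 of 1679. Slc3a1 and Slc7a8 rest on few counts, with 16 and 4 in all E4.5 epiblast-like sums and 3 of Slc3a1 in E6.5 endoderm-like sums.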

Other observations

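Of 34 genes of the amino acid response (GCN2 and ATF4), all tested, 1 was higher and 7 lower in E6.5 than in E5.5 epiblast-like cells (8% of all genes called), among them Phgdh, the first enzyme of serine synthesis (183 against 449 CPM, −1.29 ± 0.30, adjusted p = 0.00216 by edgeR's quasi-likelihood test), and Sesn2, a leucine sensor (16.3 against 75.1 CPM, −2.20 ± 0.53, adjusted p = 0.00364). Phgdh had risen from E4.5 to E5.5 (2.28 ± 0.43, adjusted p = 3.10e-04), where 2 of the 34 were higher and 0 lower (5.47% of all genes called). From E3.5, 4 were higher and 2 lower in epiblast-like and 5 higher and 2 lower in PrE-like cells, shares near the 20.7% and 18.5% of all genes called. Among the latter was Aldh18a1, a proline synthesis enzyme, at 105 CPM in PrE-like sums against 7.56 CPM (3.77 ± 0.84, adjusted p = 8.58e-04). Cth, which makes cysteine, differed between E4.5 lineages, at 13.6 CPM in PrE-like and 233 CPM in epiblast-like sums (−4.09 ± 0.94, adjusted p = 0.00351). In the endoderm 0 rose and 3 fell to E6.5 (12.5% of all genes called), and between E6.5 lineages 1 was higher and 2 lower (16.1%).

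Of 31 genes of amino acid sensing by mTORC1, 27 had a row and were tested. Eif4ebp1, a repressor of translation that mTORC1 inactivates, was at a mean of 194 CPM in PrE-like sums against 1257 CPM at E3.5 (−2.70 ± 0.31, adjusted p = 3.06e-09) and 1252 CPM in E4.5 epiblast-like sums (−2.69 ± 0.33, adjusted p = 2.72e-07). Rragd, a Rag GTPase, rose from 2.03 CPM in PrE-like to 56.8 CPM in E6.5 endoderm-like sums (4.78 ± 0.99, adjusted p = 7.42e-04). From E3.5, 1 gene was higher and 2 lower in epiblast-like cells, below the 20.7% of all genes called, and 5 higher and 3 lower in PrE-like cells (18.5% of all genes).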
